A study of Homo sapiens with 47 samples.

Results

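The 50 genes described here were the protein-coding replication-dependent histone genes of the large cluster on chromosome 6 (hg19), out of 20162 protein-coding genes in the GENCODE annotation lifted to that build. They were chosen by symbol (HIST1, H1-, H2AC, H2BC, H3C or H4C) and position, not by any measured value. The first gene was H1-1 at chr6:26017260-26018015 and the last H2BC17 at chr6:27861203-27861669. They lay in 3 blocks of 29, 5 and 16 genes, and comprised 6 linker H1, 11 H2A, 12 H2B, 10 H3 and 11 H4 genes. Of these, 49 had a canonical transcript with a single exon of 386 to 797 bp, and HIST1H4B (also called H4C2) had no transcript tagged as canonical.

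Replication-dependent histone genes supply the H2A, H2B, H3 and H4 proteins of the nucleosome core and the linker H1 that binds outside it, and they are transcribed mainly in S phase while DNA is copied. They lack introns, and their mRNAs end in a conserved stem-loop, bound by SLBP, in place of a poly(A) tail. Their transcription is organized by NPAT in nuclear structures called histone locus bodies, and many H2A and H2B genes lie head to head and share the DNA between their start sites.

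The libraries were ChIP-seq of Ishikawa cells, an endometrial carcinoma line, with antibodies to the HA tag of dCas9, to H3K27ac (acetylated lysine 27 of histone H3, found at active promoters and enhancers) and to RNA polymerase II (RNAPII). The study asked whether synthetic activators brought to estrogen receptor binding sites (ERBSs) without estrogens can act as the receptor does. Cells were kept in hormone-depleted media and transiently transfected with plasmids for a dCas9 fusion and guide RNAs (gRNAs), and puromycin and G418 were then added to select cells that held both plasmids. Every group carried a fusion, and no untransfected group was used here. The fusions were dCas9-VP16(10x), with 10 copies of the VP16 activation domain, and dCas9-p300(core), with the acetyltransferase core of p300.

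For H3K27ac and RNAPII, each fusion was combined with 5 gRNA sets and 2 libraries a set, giving 20 libraries an antibody. Pool1, Pool2 and Pool3 each targeted ERBSs near MMP17, CISH, FHL2 and HES2, Adjacent targeted regions beside such sites, and IL1RN targeted the promoter of IL1RN as the control. For HA, dCas9-VP16(10x) had 2 libraries with the ERBS gRNAs together, 2 with Adjacent and 1 with IL1RN, and dCas9-p300(core) had 2 with ERBS gRNAs. The title of the HA library with IL1RN names no fusion, and it was counted with dCas9-VP16(10x), which the study describes at that promoter. None of the targeted genes lies on chromosome 6, and all comparisons at the histone genes are therefore away from the gRNA targets.

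Each library was available as a list of peaks with a fold enrichment over background and a -log10 p, and a gene was given the highest peak within 1 kb of its body. The 47 lists held 1805 to 32052 peaks for H3K27ac, 16041 to 40757 for RNAPII and 141 to 30740 for HA, and the read depth is unknown. All 8 epithelial and endometrial markers (KRT8, KRT18, KRT19, EPCAM, CDH1, PAX8, SOX17 and ESR1) had RNAPII in all 20 lists, while 5 of the 9 matched markers of other cell types had no RNAPII peak and SYP had one in all 20. Titles call 19 dCas9-VP16(10x) and 4 dCas9-p300(core) lists stringent, although no list reached below a -log10 p of 10.0. The H3K27ac list labelled dCas9-VP16(10x) Pool1 replicate 2 had peak names with the other construct's letter, the H3K27ac list of Adjacent replicate 1 with that fusion was titled as Adjacent with IL1RN, and the RNAPII pair of dCas9-VP16(10x) IL1RN differed least of the fusion's 5 pairs, with an SD of 0.19 on the log2 scale.

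The label of the genes was checked on their sequence. A 16-base stem-loop lay near the 3' end of 50 of 50 genes in the reference genome, and the 4 forms held by more than 1 gene and that of H2AC11 are shown, with the 4 loop bases in capitals, because they show how the families differ.
H1-4: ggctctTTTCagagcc
H4C5: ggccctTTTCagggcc
H2BC5: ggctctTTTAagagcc
H4C12: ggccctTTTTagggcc
H2AC11: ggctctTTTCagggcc
The form of H1-4 was held by 28 genes of the H1, H2A, H2B and H3 families, and that of H4C5 by 8 genes, all H4. The form of H2BC5 was held by 7 genes and that of H4C12 by 2, and H2AC11, H2AC15, H2BC10, H3C6 and H4C13 each had a form of their own. The stem-loop was present alike at genes with and without RNAPII: 12 of the 28 genes with the commonest form had RNAPII in all 20 lists and 15 had none.

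Promoters were compared next, over 250 bases before to 50 after each start site and on both strands. The letters TATAAA stood in 34 of 50 histone promoters (68.0%) against 9.8% of all 20162, CCAAT in 43 (86.0%) against 35.9%, and the octamer ATTTGCAT, the site of POU2F1, in 18 (36.0%) against 1.6%. The octamer lay in 9 of 11 H2A and 9 of 12 H2B promoters and in none of the 27 H1, H3 and H4 promoters. GGTCCG, part of a promoter site of H4 genes, lay in 9 of 11 H4 promoters and in H3C7, and in 14.6% of all promoters. Head-to-head genes share these windows, so the counts are not of independent sequences, and a match is a description of the letters.

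Upstream sequences of 4 loci are shown, 2 with RNAPII in all 20 lists and 2 without a peak in any list, so that the promoter letters can be read beside the binding. Capitals mark TATAAA, the CCAAT box, the octamer and the H4 site GGTCCG on either strand, and copies on the 2 strands may overlap. The first pair are the whole stretches between head-to-head genes, read on the plus strand: H2AC17 and H2BC17 (chr6:27860963-27861203, RNAPII in all 20 lists) and H2BC12 and H2AC12 (chr6:27114634-27114885, no peak). Only 10.1% of the 50-base positions within the H2BC12 transcript have no second match in the genome, against 62.0% within that of H2AC12. The stretch between them was not scored. Absence of a peak at H2BC12 thus cannot be told from loss of reads. The second pair are the 250 bases before the start of H4C5 (chr6:26204588-26204837, plus strand, RNAPII in all 20 lists) and of H4C4 (chr6:26189341-26189590, minus strand, no peak).
H2AC17/H2BC17: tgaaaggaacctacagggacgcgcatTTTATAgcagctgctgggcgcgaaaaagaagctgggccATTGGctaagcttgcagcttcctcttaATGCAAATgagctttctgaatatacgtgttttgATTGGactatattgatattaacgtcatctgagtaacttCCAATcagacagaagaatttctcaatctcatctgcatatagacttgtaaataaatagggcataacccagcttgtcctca
H2BC12/H2AC12: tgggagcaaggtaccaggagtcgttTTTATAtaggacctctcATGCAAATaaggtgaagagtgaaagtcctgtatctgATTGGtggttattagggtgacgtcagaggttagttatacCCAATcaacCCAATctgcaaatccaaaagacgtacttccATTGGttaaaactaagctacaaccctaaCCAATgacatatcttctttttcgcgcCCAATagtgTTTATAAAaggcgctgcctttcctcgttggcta
H4C5: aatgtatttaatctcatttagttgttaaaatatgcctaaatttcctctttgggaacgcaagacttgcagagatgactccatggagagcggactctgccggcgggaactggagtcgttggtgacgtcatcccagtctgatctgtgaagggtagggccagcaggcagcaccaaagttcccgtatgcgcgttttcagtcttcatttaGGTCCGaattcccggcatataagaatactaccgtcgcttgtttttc
H4C4: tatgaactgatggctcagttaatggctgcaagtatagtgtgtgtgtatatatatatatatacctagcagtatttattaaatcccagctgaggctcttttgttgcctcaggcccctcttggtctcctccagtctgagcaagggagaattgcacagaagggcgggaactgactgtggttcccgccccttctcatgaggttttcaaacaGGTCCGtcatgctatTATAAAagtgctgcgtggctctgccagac
The H2BC12/H2AC12 stretch held 3 TATAAA, 6 CCAAT and 1 octamer match, and the H2AC17/H2BC17 stretch 1, 3 and 1. H4C5 and H4C4 each held GGTCCG once, and H4C4 also TATAAA. Over all 50 genes, TATAAA stood in 16 of the 22 promoters with RNAPII in all lists and 16 of the 26 without a peak, CCAAT in 18 and 24, and the octamer in 9 and 9. Each of the 3 motifs was thus found in genes of both kinds.

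RNAPII divided the cluster into genes that were always and genes that were never in a peak. Of the 50 genes, 22 had a peak in all 20 lists (44%), 26 in none (52%) and 2 in some (4%), and for all protein-coding genes the shares were 46.6%, 23.7% and 29.7%. Short genes without a histone label (1111 genes under 2 kb) had a peak in all lists in 14.2% and in none in 72.4%. Between 22 and 24 histone genes had a peak in any 1 list, although the lists differed in length and covered 52.5% to 72.6% of all genes. The heat map of all 50 genes shows the same genes filled from list to list.

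**Figure D1:**
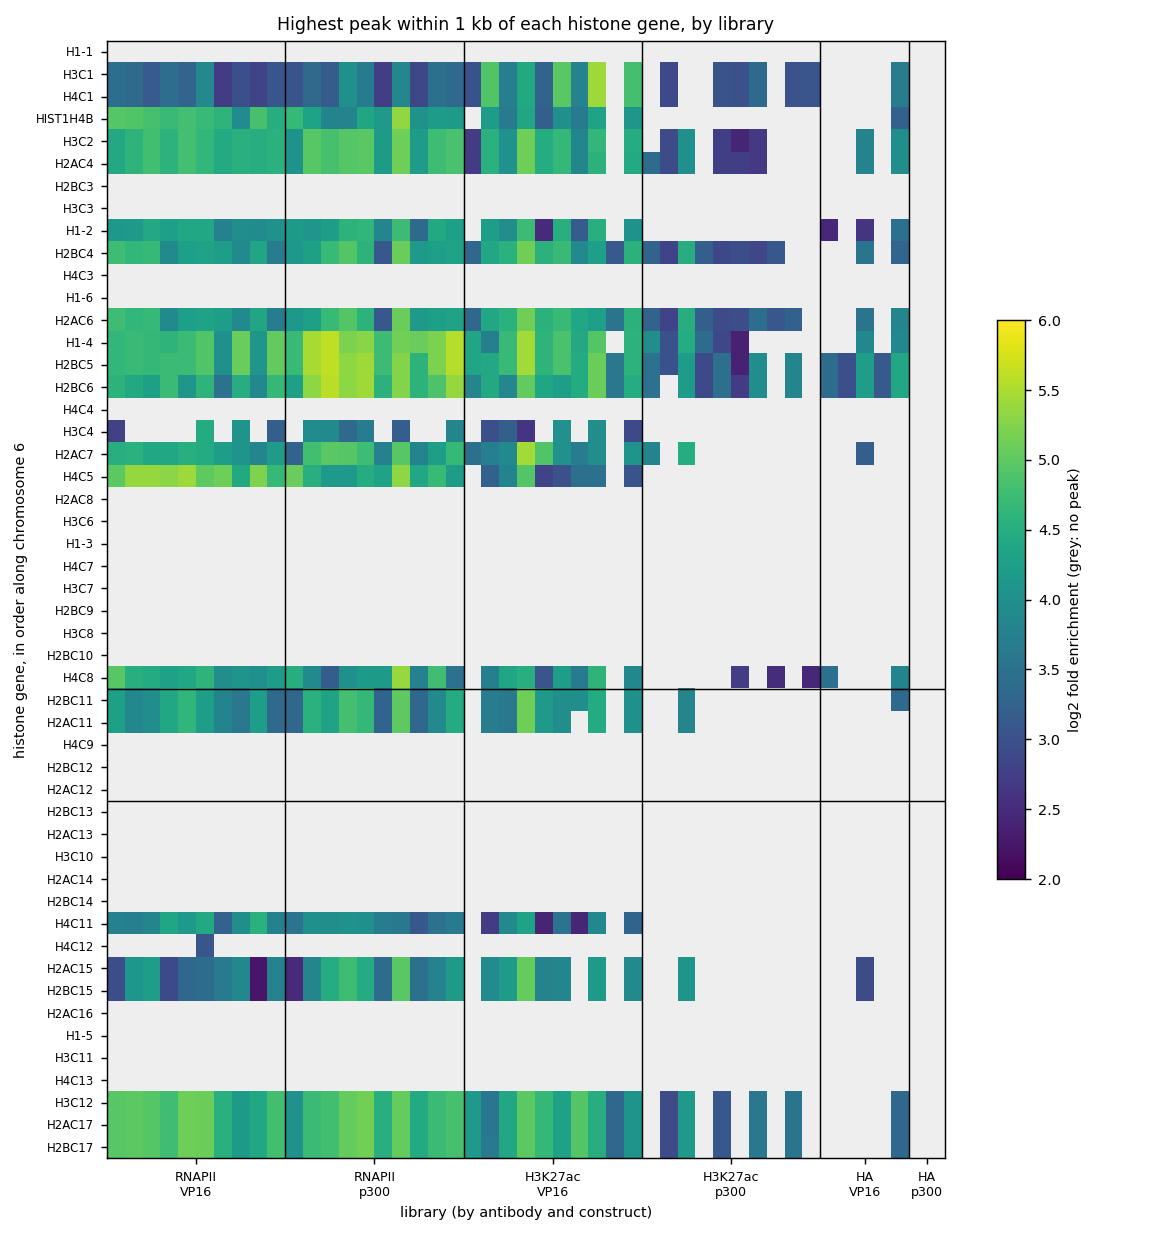
Each row is one of the 50 histone genes in genome order and each column one of the 47 peak lists, grouped by antibody and construct. Colour gives the log2 fold enrichment of the highest peak within 1 kb of the gene, grey cells have no peak, and horizontal lines part the 3 blocks. RNAPII columns repeat the same 22 filled rows in all 20 lists, and H3K27ac columns vary between libraries.

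Both kinds of gene occurred in every family and every block. Of the linker genes, H1-2 and H1-4 had RNAPII in all 20 lists and H1-1, H1-3, H1-5 and the testis gene H1-6 in none. The H2A family was split 6 to 5 (always to never) and the H2B family 6 to 6. Of the H3 genes 3 always, 1 sometimes and 6 never had a peak, and of the H4 genes 5, 1 and 5. Some always-occupied genes were counted through a neighbour's peak. For H3C1 the median summit lay 1257 bp after its own start and 59 bp after that of H4C1. H3C12 took the peak of H2AC17 and H2BC17, and H2BC6 a distant one. The blocks held 14, 2 and 6 always-occupied genes. From H2AC8 to H2BC10, 8 consecutive genes (H2AC8, H3C6, H1-3, H4C7, H3C7, H2BC9, H3C8 and H2BC10) had no RNAPII peak in any list.

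Head-to-head genes were counted together, since those compared start less than 1 kb apart and 1 peak serves both. The H2A/H2B pairs H2BC4/H2AC6, H2BC11/H2AC11, H2AC15/H2BC15 and H2AC17/H2BC17 had RNAPII at both genes in all 20 lists. The pairs H2BC12/H2AC12, H2BC13/H2AC13 and H2AC14/H2BC14, and the H3/H2B pair H3C7/H2BC9, had it at neither in any list. The occupied pairs took their value from the same peak in all 20 lists, so joint occupancy follows from the window and is no separate result. H3C12 shared the peak of H2AC17 and H2BC17 in all 20 lists.

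For the 26 genes without RNAPII, distance and read placement were measured. The nearest RNAPII peak of any list lay 2667 to 30118 bp (median 13606) from their canonical bodies. A gap was also found at occupied genes counted through longer isoforms, with the nearest peak of H2BC6 at 3329 bp (median over lists 11131) and that of H3C12 at a median of 1869 bp. Because only uniquely placed reads were kept, near-identical histone copies can lose reads. For each gene's transcript, without its flanks, the share of 50-base positions with no second match in the genome (up to 2 mismatches) was therefore computed. Its median was 86.75% for the 26 genes (lowest 10.1) and 82.4% for the 22 occupied genes (lowest 1.8). H1-1, H1-3, H1-6 and H4C3 were unique at every position and had no peak, whereas H4C11 had 1.8% and a peak in all 20 lists, with summits 343 to 777 bp after its start. Under 25% of positions were unique at 4 of the 26 genes, H2BC12 (10.1), H2BC13 (20.6), H2AC13 (21.5) and H2AC14 (21.8), and at 1 of the 22, and there absence of a peak cannot be told from loss of reads. The part of read placement in the other absences was not tested.

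H3C4 and H4C12 were the genes between both classes. H3C4 had RNAPII in 10 lists, 4 of them dCas9-VP16(10x) lists and 6 dCas9-p300(core) lists, at a fold enrichment of 6.86 to 22.0. H4C12, with 1.2% unique positions, had it in dCas9-VP16(10x) Pool1 replicate 2 alone, at 8.40 and 671 bp after its start. Neither count was read as a difference between constructs.

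Among the occupied genes, RNAPII levels differed widely. The median fold enrichment over 20 lists was highest at the linker gene H1-4, at 31.6 (16.1 to 48.9), followed by H4C5 at 28.9 (17.7 to 42.8), H2BC5 at 28.5 (16.1 to 48.9) and the shared peak of H3C12, H2AC17 and H2BC17 at 27.6 (16.3 to 35.4). Among 9396 genes with RNAPII in all lists, H1-4 stood at the 95.1 percentile and H4C5 at the 92.1 percentile. The lowest were H3C1 and H4C1, whose shared peak had a median of 10.1 (6.49 to 16.0, percentile 4.3), and H2AC15 and H2BC15 at 13.7 (4.74 to 31.4, percentile 23.5). No gene differed from its neighbour in this order by more than the spread over lists. H1-4 and H2BC5 took their value from the same peak in 15 of 20 lists, so these places in the order are not separate measurements.

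The median RNAPII summit lay 0 to 200 bp after the start of 11 of the 22 occupied genes, and the median H3K27ac summit there at 2. The RNAPII summit stood 55 bp after the start of H1-4, 58.5 at H1-2, 31.5 at HIST1H4B, 34.5 at H2AC17, 59 at H4C1, 90 at H4C5, 110 at H4C8 and 138.5 at H2AC7. H3K27ac summits were further from the start than those of RNAPII at 19 of the 22 genes, such as 309 bp after the start at H1-4, 590.5 at H1-2, 258 at HIST1H4B and 236 at H4C5, and upstream of the start at H4C8 (-390 bp). For H2BC6 the highest RNAPII peak lay far upstream (-11738 bp), within 1 kb of a long annotated isoform, and for H3C12 it was the H2AC17/H2BC17 peak at -2324.5 bp.

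**Figure D2:**
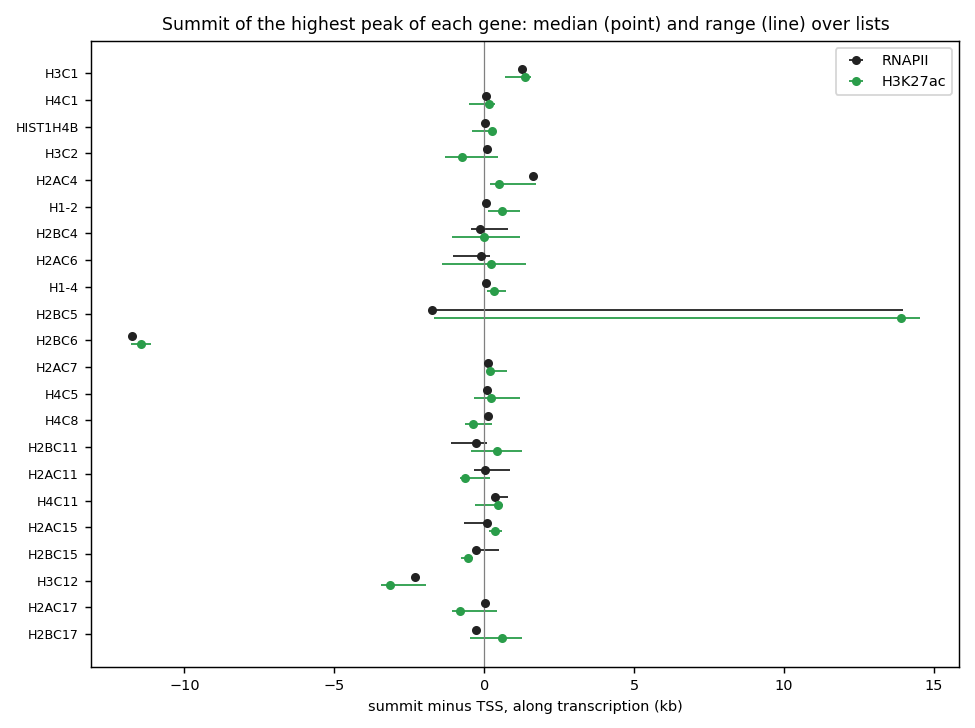
Position of the highest peak's summit relative to the annotated start (kb, along the direction of transcription) for genes with a peak, one row a gene, with points at the median and lines from the lowest to the highest list, for RNAPII and H3K27ac. Most RNAPII points lie near the start, for example 55 bp at H1-4 and 31.5 bp at HIST1H4B, and H3K27ac points scatter on both sides.

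The constructs were compared for RNAPII in a limma fit to the log2 fold enrichment of 9396 genes, each library centred on its median gene. A value is thus a change relative to the median gene, whose raw fold enrichment was itself 0.72 lower on the log2 scale with dCas9-VP16(10x) (-0.72). Relative to that gene, 17 of the 22 histone genes tested were called higher with dCas9-VP16(10x) (adjusted p of 0.05 or less over all genes), none was called lower, and the median difference was 0.62. Over all genes tested, 18.1% were called in either direction and 11.3% were higher with dCas9-VP16(10x) (1064 higher and 636 lower), and the median difference was 0.01. Only genes with a peak in all 20 lists entered, and the 22 genes rest on 15 distinct sets of values, 11 of them among the called genes. All 5 H4, all 3 H3, 5 of 6 H2A, 3 of 6 H2B and 1 of 2 H1 genes tested were called. Among them, H3C1, H3C12 and H2AC4 took their value from a peak at a neighbour's start.

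Without centring the picture at these genes was different, with 4 called, H4C5 higher (0.56) and H1-4, H2BC5 and H2BC6 lower (-0.55, -0.53 and -0.73), and the median difference at the 22 genes was -0.10 against -0.72 over all genes, of which 16 were then called higher and 7094 lower. The raw median of the histone genes thus moved less between fusions than that of the median gene. All dCas9-p300(core) RNAPII libraries carried 1 number in their peak names, and the dCas9-VP16(10x) libraries another (7 libraries) or none (3), so the construct and whatever this number marks cannot be told apart. Every dCas9-VP16(10x) RNAPII list and no dCas9-p300(core) RNAPII list was titled stringent, so what this title marks cannot be told apart from the construct either. Set against dCas9-p300(core), the histone genes' median centred difference was 0.77 for the 7 libraries and 0.43 for the 3, and that of all genes 0.00 and 0.06.

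**Figure D3:**
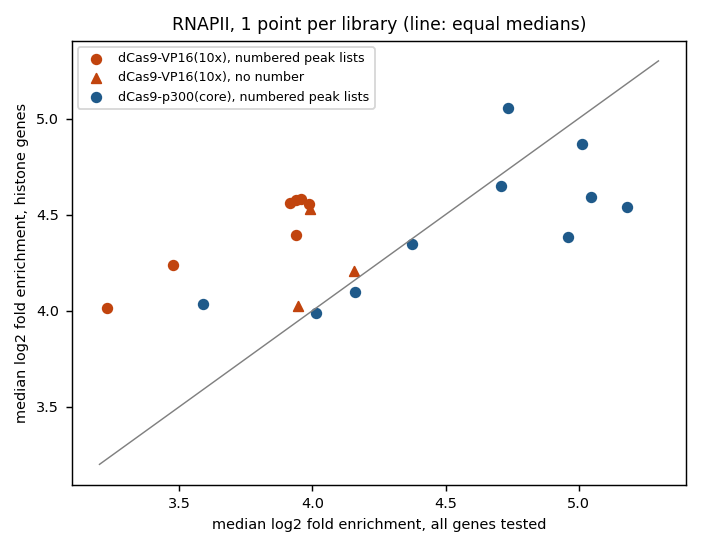
Each point is one RNAPII library, with the median log2 fold enrichment of all 9396 genes tested on the x axis and that of the 22 histone genes on the y axis, coloured by construct, with triangles for libraries without a number in their peak names and a line of equal medians. The histone genes' medians lie between 3.99 and 5.05 in all 20 libraries, while dCas9-p300(core) libraries reach 5.18 on the x axis.

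H4C5, HIST1H4B, H4C11 and H4C8, which encode the core histone that pairs with H3, had the 4 largest differences, H4C1 did not, and no test compared the families. At H4C5 the fold enrichment ran from 21.5 through a median of 35.9 to 42.8 with dCas9-VP16(10x) and from 17.7 through 21.5 to 39.9 with dCas9-p300(core). The groups overlapped, and the centred log2 difference was 1.29 ± 0.26 (SE, n = 10 and 10, limma adjusted p = 0.00596). HIST1H4B ran from 15.3 through 27.04 to 30.9 and from 13.8 through 18.3 to 40.7, with a difference of 1.11 ± 0.23 (limma adjusted p = 0.00677). Its single highest library belonged to dCas9-p300(core), whose own values spread more widely. H4C11 ran from 9.53 through 14.97 to 23.5 and from 8.59 through 12.7 to 16.4, a difference of 1.00 ± 0.17 (limma adjusted p = 0.00315), at a gene few reads can be placed in. H4C8 ran from 15.8 through 20.2 to 31.2 and from 9.08 through 16.96 to 41.5, and differed by 0.94 ± 0.27 (limma adjusted p = 0.028). H4C1, the lowest gene in level, ran from 6.49 through 9.35 to 14.7 and from 6.72 through 10.4 to 16.0. Its raw median was lower with dCas9-VP16(10x), and its centred difference was 0.58 ± 0.17 (limma adjusted p = 0.0273) through the peak it shares with H3C1.

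The H2A, H2B and H3 genes moved mostly through shared peaks. The peak of H3C12, H2AC17 and H2BC17, whose upstream sequence is given above, ran from 18.2 through 29.3 to 34.9 with dCas9-VP16(10x) and from 16.3 through 27.1 to 35.4 with dCas9-p300(core). These raw ranges nearly coincided, and the centred difference was 0.77 ± 0.14 (limma adjusted p = 0.00413). At H3C2 and H2AC4 the ranges were 21.4 to 27.8 and 16.5 to 34.7, with medians of 23.8 and 28.7, and the difference was 0.62 ± 0.13 (limma adjusted p = 0.00637). There the raw median was lower with dCas9-VP16(10x), so the direction holds only relative to the median gene. H2AC7, with medians of 21.0 and 26.3, differed by 0.63 ± 0.12 (limma adjusted p = 0.00441). The shared peak of H2BC4 and H2AC6 ran from 12.8 through 19.4 to 27.1 and from 8.58 through 19.6 to 34.4, and that of H2BC11 and H2AC11 from 10.5 through 17.2 to 24.8 and from 9.77 through 20.9 to 32.3. The raw medians of these divergent pairs were slightly lower with dCas9-VP16(10x). The pairs H2BC4/H2AC6 and H2BC11/H2AC11 differed by 0.64 ± 0.22 and 0.60 ± 0.20, close to the threshold (limma adjusted p = 0.0499 and 0.0494).

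Not every occupied gene was called. The linker gene H1-2 had medians of 17.6 and 19.0 and differed by 0.62 ± 0.19 (limma adjusted p = 0.0317), but H1-4 was at 0.17 (limma adjusted p = 0.325). H1-4 ran from 16.1 through 25.7 to 33.9 with dCas9-VP16(10x) and from 25.8 through 37.1 to 48.9 with the other fusion, so its raw values were mostly lower with dCas9-VP16(10x). H2BC5, which took its value from the H1-4 peak in 15 of 20 lists, was at 0.20, and H2BC6, which shared its peak with H2BC5 in 5 lists, at -0.01 (limma adjusted p = 0.219 and 0.970). H2AC15 and H2BC15, whose raw values ran from 4.74 to 18.7 and from 5.59 to 31.4, were at 0.19 (limma adjusted p = 0.508). At none of the 22 genes did the 10 centred dCas9-VP16(10x) values all exceed the 10 others, against 0.298% of all genes tested.

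**Figure D4:**
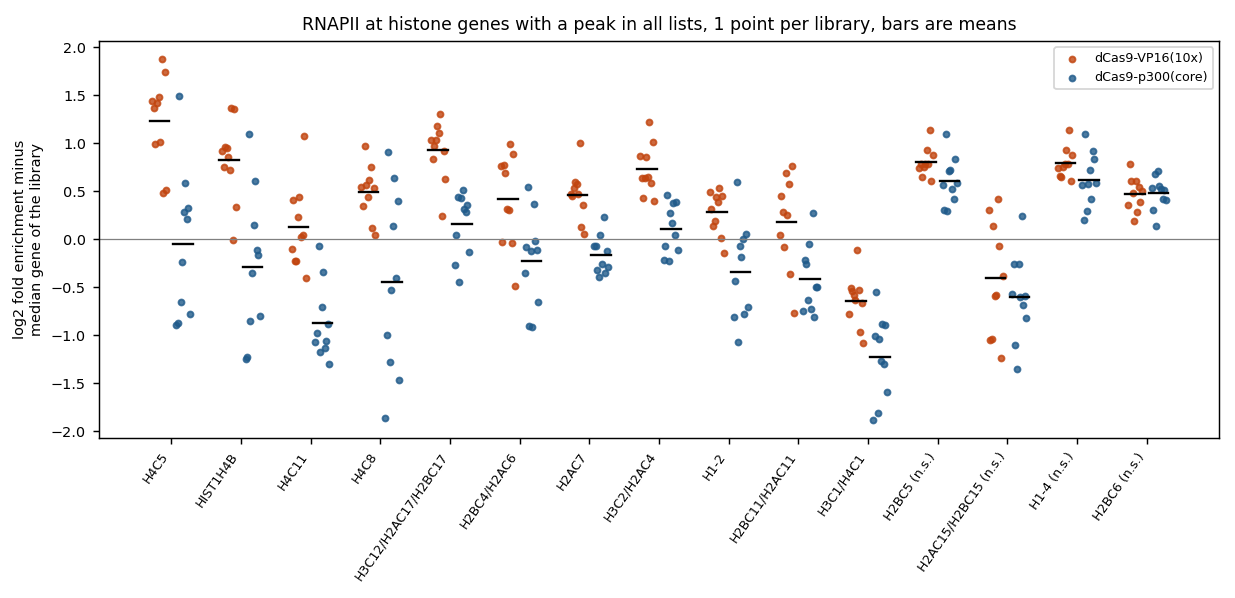
Centred log2 fold enrichment of RNAPII, relative to each library's median gene, for the 15 distinct sets of values at the 22 histone genes. Points are libraries by construct and bars are means. The constructs overlap at every gene, with the mean difference 1.29 at H4C5 and -0.01 at H2BC6.

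The number of calls depended on single libraries. Left out one at a time, 20 libraries gave 9 to 18 called histone genes, and 11 of the 20 fits gave 9 to 11. These were the fits without dCas9-p300(core) Adjacent 1, Pool1 2, Pool2 2 or Pool3 2, or without dCas9-VP16(10x) Adjacent 1 or 2, IL1RN 1 or 2, Pool1 2, Pool2 1 or Pool3 1. The same 9 genes were called in all 20 fits: H4C5, HIST1H4B, H4C11, H3C12, H2AC17, H2BC17, H2AC7, H3C2 and H2AC4. With the similar dCas9-VP16(10x) IL1RN pair counted as 1 sample, 9 were called.

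No histone gene was called between gRNA sets. Pools and Adjacent together against IL1RN gave 0 called genes for either fusion and for the difference between fusions, with 0.0% of the 9396 genes called in limma in each of the 3 RNAPII contrasts. At an unadjusted p under 0.05, limma gave 210, 307 and 302 genes, among them 0, 2 and 0 histone genes. The 2 were H2AC15 and H2BC15 with dCas9-p300(core), through 1 shared peak (0.79, unadjusted p = 0.0361 and adjusted p = 0.997 in limma).

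H3K27ac was found at the same genes as RNAPII but not in every list. A peak was found in at least 1 list at 23 of the 50 genes (46.0%, against 73.0% of all genes and 23.9% of the other short genes), none of them in all 20, and in no list at 27. These 23 were the 22 with RNAPII in all lists and H3C4. With dCas9-VP16(10x) the 10 lists held 7 to 23 of the genes (median 23) and with dCas9-p300(core) 3 to 15 (median 9.0). The shares of all genes differed likewise, with medians of 59.65% and 18.25% against 46% and 18% of the histone genes. By gRNA set, in replicate order, dCas9-VP16(10x) had 23 and 23 for Adjacent, 13 and 23 for IL1RN, 22 and 23 for Pool1, 19 and 23 for Pool2 and 7 and 23 for Pool3. For dCas9-p300(core) the numbers were 15 and 5, 7 and 11, 12 and 10, 11 and 3, and 8 and 3.

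The length of the lists differed with them. The dCas9-VP16(10x) lists held 5322 to 32052 peaks and the dCas9-p300(core) lists 1805 to 24280. The part of list length in the numbers was not tested, and the genes were also counted over the best 1805 peaks of each list. Then 0 to 6 histone genes remained with dCas9-VP16(10x) (median 2.5) and 0 to 3 with dCas9-p300(core) (median 2.0), and the shortened lists covered 5.0% to 10.8% of all genes. Among lists with a number in their peak names, the 5 dCas9-VP16(10x) lists had 23, 13, 22, 19 and 7 of the genes and the 6 dCas9-p300(core) lists 15, 5, 7, 12, 11 and 8. Without a number, the 5 dCas9-VP16(10x) lists each had 23 and the 4 others 11, 10, 3 and 3. The plot of genes against list length shows that RNAPII counts stayed near 22 at any length, whereas H3K27ac counts varied at like lengths.

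**Figure D5:**
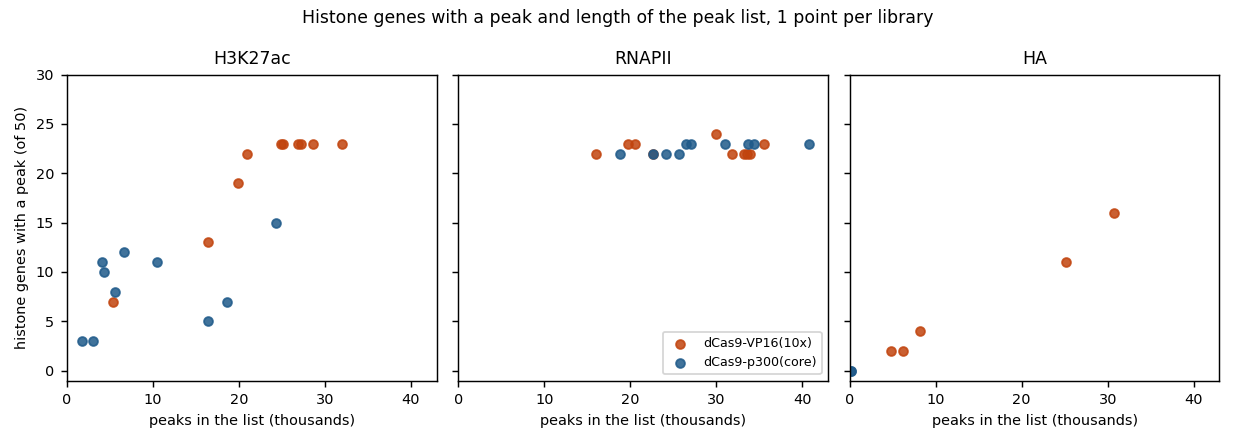
Number of the 50 histone genes with a peak within 1 kb against the number of peaks in the list (per 1000 peaks), one point a library, by antibody and construct. RNAPII points lie at 22 to 24 whatever the length, H3K27ac points at 3 to 23, and HA points at 0 to 16.

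The H3K27ac levels were described by construct, over lists with a peak and without centring. The median of the 597 genes with H3K27ac in all lists was itself 0.99 higher on the log2 scale with dCas9-VP16(10x). At H1-4 they ran from 13.2 through 24.4 to 43.6 in 9 dCas9-VP16(10x) lists and from 5.17 through 9.36 to 22.2 in 6 dCas9-p300(core) lists. At H2AC6, the gene with H3K27ac in the most lists (19), they ran from 10.1 through 22.2 to 35.1 and from 6.97 through 9.25 to 22.4. H4C5, high in RNAPII, had H3K27ac in 8 dCas9-VP16(10x) lists at 7.02 to 30.4 (median 10.2) and in no other list. H1-2 (5.62 to 26.6) and HIST1H4B (9.30 to 20.6) likewise had it in 8 and 0 lists. At H3C1 and H4C1, the lowest genes in RNAPII, the shared H3K27ac peak ran from 8.02 through 21.4 to 42.4 in 9 dCas9-VP16(10x) lists and from 7.41 through 8.13 to 10.4 in 6 dCas9-p300(core) lists. The levels at these genes were thus low for RNAPII but within the range of the other genes for H3K27ac. At H2BC6 H3K27ac ran from 12.01 to 34.3 in 10 lists and from 6.55 to 18.6 in 7, again at the distant upstream peak. In the order of medians, H2AC11 and H4C11 were the only neighbours that differed by more than their spread over lists.

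No histone gene could be tested for H3K27ac in the fit that was used for RNAPII, because none had a peak in all 20 lists. That fit held 597 genes and called 0.0% of them in limma between fusions (37 at an unadjusted p under 0.05) and 0.0% in each of the 3 IL1RN contrasts (17, 15 and 0). Counting lists with a peak, Fisher's exact test (two-sided, 14115 genes) called 0.0%, while 24.4% had an unadjusted p under 0.05. Of the 23 histone genes 13 did, each with more dCas9-VP16(10x) lists. Some of the 13 share a peak and are not separate measurements. H2BC11 and H2AC11 shared it in all 8 lists that held both, as did H2AC15 and H2BC15. H3C12 and H2AC17 shared theirs in 15 of 15, and H2BC17 had that peak in 14 of 15. HIST1H4B, H1-2, H4C5 and H4C11 had 8 of 10 lists against 0 of 10 (Fisher's exact p = 0.000714, adjusted p = 0.084), H2AC7 had 9 against 2 and H2BC11 8 against 1 (exact p = 0.00548, adjusted p = 0.099). With equal list lengths 13 of the 23 histone genes could be tested and none had an exact p under 0.05. HIST1H4B, H1-2, H4C5, H4C11, H2AC7 and H2BC11 were not among them, so this count cannot decide for these genes. Of the 13 genes with an unadjusted p under 0.05 above, only H3C12, H2AC17 and H2BC17 were tested again, at 1 list against 0. Without dCas9-VP16(10x) Pool1 replicate 2, at full list length, 13 histone genes had an exact p under 0.05.

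HA, which marks the dCas9 fusion itself, was found at few of the histone genes in the short lists and at more in the long ones. With dCas9-VP16(10x) the ERBS lists of 6184 and 30740 peaks had 2 and 16 of the genes, the Adjacent lists of 4785 and 25109 peaks 2 and 11, and the IL1RN list of 8149 peaks 4. The lists covered 23.6% to 72.1% of all protein-coding genes. The dCas9-p300(core) lists, with 154 and 141 peaks, had 0. Whether the 2 ERBS lists come from separate libraries was not tested, and no histone promoter was a target.

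The HA peak found in all 5 dCas9-VP16(10x) lists was counted for H2BC5 and H2BC6, at chr6:26172006-26172499 with the lists merged. It lay between their canonical transcripts, and the merged stretch overlapped the annotated 5' end of H2BC6 (chr6:26172287). Its fold enrichment was 7.90 and 18.7 in the Adjacent lists, 8.71 and 21.1 in the ERBS lists and 10.6 in the IL1RN list. The summit stood 13836 to 13917 bp after the start of H2BC5, which was thus counted through a long isoform and not through the promoter. For H2BC6 the summit stood at -11803 to -11722 bp from the canonical start, beside the start of its long annotated gene body. H1-2 had HA in 3 lists at 5.44, 6.05 and 11.01, at its own start, and H3C2 and H2AC4 in 2 lists at 13.9 and 15.9.

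Histone genes elsewhere and genes that serve these genes gave a background for the RNAPII difference. Of 12 factors of histone gene transcription and mRNA processing, 11 were tested and 3 were called higher with dCas9-VP16(10x): CSTF2, a cleavage factor, at 0.77 (limma adjusted p = 0.0201), POU2F1, which binds the octamer, at 0.52 (limma adjusted p = 0.0095) and HINFP, a regulator of H4 genes, at 0.49 (limma adjusted p = 0.0126). NPAT was at 0.48 and SLBP at -0.21, and neither was called (limma adjusted p = 0.0705 and 0.573). None of the 9 replication-independent histone genes tested was called (median 0.00), and of the 6 tested genes of the other replication-dependent clusters only H4C16 was, at 1.13 (limma adjusted p = 0.00473, list median 0.07). In that list H2BC21, H2AC20 and H2AC21 had the same values (0.05), as did H2AC25 and H2BC26 (0.09), so its genes are not separate measurements. Of the 16 other protein-coding genes of the same window 7 were tested and 4 were called higher (median 0.51). Among these called genes, ENSG00000282988 had the same values as the histone gene H2AC7 (0.63, limma adjusted p = 0.00441), so the neighbours are not wholly separate from the histone genes. The median of 0.62 at the histone genes thus stood beside 0.51 at their neighbours, and whether the difference belongs to the histone genes or to the region was not tested.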

How the data were processed

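Peak lists of 47 ChIP-seq libraries were used. Per the submitters' processing notes and the study's methods, the authors aligned 50-base reads to hg19 with Bowtie 1.1.2, kept uniquely placed reads, and called peaks for each library with MACS2 2.1.0.20140616. SAMtools and bedtools are named without a version here. The deposited lists give each peak's fold enrichment (a ratio over background), its -log10 p-value and its -log10 q-value. No read counts are in them, so depth is unknown and the number of peaks is given instead. A deposited table of normalized signal over 23 targeted regions was not used.

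Genes came from GENCODE (hg19). Each gene took the highest peak within 1000 bp of its body. Fold enrichments were log2 transformed, centred on each library's median gene and fitted with limma 3.58.1 (R 4.3.3) on the genes with a peak in all 20 lists, with Benjamini-Hochberg adjustment over all of them and no imputed value. Presence was compared with two-sided Fisher's exact tests. Other steps used Python 3.11.15, numpy 2.4.6, pandas 2.3.3 and matplotlib 3.10.9. The fit was tested on simulated data. The labels do not say whether replicates were separate cultures, so p-values measure the spread between these libraries. Same-numbered libraries did not deviate together in every pair of groups (r from -0.368 to 0.709 for RNAPII and -0.479 to 0.902 for H3K27ac). The main fit used no replicate block, which was run as an alternative. The genes, lists and tests were chosen with earlier results of these data known. Named were the 5 highest and 5 lowest genes of each antibody, the best-covered gene of each family, the 10 called genes with the smallest adjusted p, the 5 genes with most HA lists, and genes of lists of 12 or fewer. Alternatives covered centring, windows, peak thresholds, genes tested, the test and left-out libraries, and 5 were added after seeing the data.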

Additional observations from a re-analysis of the deposited data

Results flagged for a closer look

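Among the 10 RNAPII lists of dCas9-VP16(10x), Pool1 replicate 2 stood apart from the others in the number of histone genes with a peak, at 24 against a median of 22.0. It was the only list with a peak at H4C12 and one of the lists with a peak at H3C4. Of 35 groups of values examined in this way 1 stood out, and chance gives about 1 in 20.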

How the results depend on the processing

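For RNAPII, dCas9-VP16(10x) minus dCas9-p300(core), 17 histone genes were called with and without the replicate block, which gave 1865 called genes in all against 1700 and changed no other count of called histone genes. The replicate block and pairing were checked on 45 pairs of groups an antibody. Of these, 11 correlated above 0.1 for RNAPII and 28 for H3K27ac (medians 0.027 and 0.281), so not every pair did. The labels give the libraries only a shared replicate number. For H3K27ac with either fusion, replicate 1 of IL1RN, Pool1, Pool2 and Pool3 had a number in its peak names and replicate 2 had none. Without centring 4 were called and the direction of most turned: H3C1 and H4C1 were at -0.14, H3C2, H2AC4, H1-2 and H2AC7 at -0.10, H2BC4 and H2AC6 at -0.082, H2BC11 and H2AC11 at -0.12, H1-4 at -0.55, H2BC5 at -0.53, and H2AC15 and H2BC15, called in neither fit, at -0.53. H2BC6, near 0 throughout, also changed sign with quantile normalization (0.037), with the -log10 p as measure (0.030) and with peaks on the gene body (0.0022). The fit without centring differs from the main fit only in leaving in the library medians. With 12788 genes admitted by a peak in 5 of 10 lists per construct and missing peaks set to the list's lowest value 9 were called, although these genes had no missing peak, with peaks within 1 kb of the start 11, with the IL1RN pair as 1 sample 9, and by Fisher's exact test 0 of the 2 genes with a peak in some lists (of all 5981 genes, 26 were called higher and 141 lower). Left out singly, libraries gave 9 to 18. The RNAPII contrasts with IL1RN stayed at 0 called histone genes in every alternative that could be run. The H3K27ac limma fits on genes with a peak in all lists held no histone gene, so their 0 calls say nothing of stability, and the alternatives that held 3 to 23 histone genes called 0. Over single genes, 159 values kept their direction and side, 32 became weaker, 2 stronger and 17 turned. The count of genes with H3K27ac fell from 9.0 with dCas9-p300(core) to 4.5 at a -log10 p of 20, 2.0 at equal list length and 3.5 on the gene body, and from 23 with dCas9-VP16(10x) to 2.5 at equal length. HA with dCas9-VP16(10x) went from 4 to 0 at equal length and 2.0 near the start. Left-out libraries gave 8 to 10 and 23 to 23 for H3K27ac, 23 and 22 for RNAPII and 3 to 7.5 for HA. A block for the number in the peak names could not be fitted for the RNAPII contrast between fusions. The causes of the other changes were not tested. Unknown depth limits every absence of a peak.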
